A study of Mus musculus with 2 samples.

Results

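The wide peaks are the regions of Tle3 enrichment that extended over more than 1000 bp in bone marrow progenitor cells. They were chosen by width alone, as end minus start in the peak list made by the authors, and 572 of its 5136 peaks passed. The study used wild-type C57BL/6 mice at 8 to 10 weeks of age. Marrow cells lacking lineage markers and carrying cKit, the receptor for stem cell factor, went into chromatin immunoprecipitation with sequencing (ChIP-seq). The list sets 1 library made with an anti-Tle3 antibody against 1 control library, which the labels name normal IgG in one place and input in another. Both groups share genotype, strain, age and sorted population, and the labels describe that population both as hematopoietic progenitors and as T cells. The list holds no expression values, so the cell type could not be checked against markers. There were no replicates, and the list gives no read totals, so that sequencing depth is not known for any peak. Intervals in brackets are 95% exact (Clopper-Pearson) binomial intervals and cover counting error only.

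Tle3 is a member of the Groucho family of corepressors. These proteins do not bind DNA themselves. They are brought to their sites by DNA-binding factors, among them RUNX, TCF/LEF and HES proteins, and there they recruit histone deacetylases. Groucho proteins form tetramers and bind histone tails, and spreading along chromatin from the site of recruitment has been studied as one way in which they act. The width of a ChIP-seq peak records how far enrichment extended around a site, and it also grows with the strength of the signal and with the fragment length.

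Width and score come from the same pair of libraries. The score was deposited by the authors and is that of MACS, the peak caller, in which 10 times the negative log10 of the p-value against local background gives the score. Scores of the wide peaks are therefore described here without a test and support nothing by themselves. The same holds for the neighbours of the wide peaks: peaks of 1 list are not replicates, and no test of a difference between wide and other peaks was made.

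Most of the wide peaks were only slightly wider than the threshold. The median lay at 1154 bp and the quartiles at 1059.5 and 1333 bp. Widths of over 1000 to 1200 bp made up 338 of the 572, and 158 were over 1200 and up to 1500 bp. A further 61 lay over 1500 and up to 2000 bp, 10 lay over 2000 and up to 3000 bp, and 5 were wider than 3000 bp. The wide peaks were 11.1% of the list by number and 19.5% of its covered length, at 0.721 of 3.69 Mb. The threshold did not fall in a gap of the distribution. There were 56 wide peaks within 20 bp above it, with a median score of 117, and 43 other peaks within 20 bp below it, with a median score of 118. The 3 wide peaks nearest the threshold were each 1001 bp wide and scored 112 (chr1:89110089-89111089), 145 (chr2:26244364-26245364) and 119 (chr9:30837731-30838731). On the other side, peaks of 1000, 999 and 999 bp scored 77.1 (chr15:99532320-99533319), 153 (chr2:35055910-35056908) and 247 (chr4:89035460-89036458).

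The wide peaks held most of the highest scores of the list. Their median score was 151, with quartiles of 116 and 208, against 68.8 over all peaks and 65.7 over the 4564 other peaks. Of the wide peaks, 487 scored at least 100, or 85.1% (81.96 to 87.95%), where 24.5% of all peaks did so. Scores of 200 or more were found for 157, or 27.4%, where the share over the list was 4.40%. Scores of 400 or more were found for 21, or 3.67%, where the share over the list was 0.506%. Read the other way, wide peaks were 2 of the 1719 peaks scoring under 60, 130 of the 253 scoring from 150 to under 200 (51.4%), and 21 of the 26 scoring at least 400. Because the rule used width, and width and score are both outputs of the same caller, nothing is read from these shares.

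**Figure D1:**
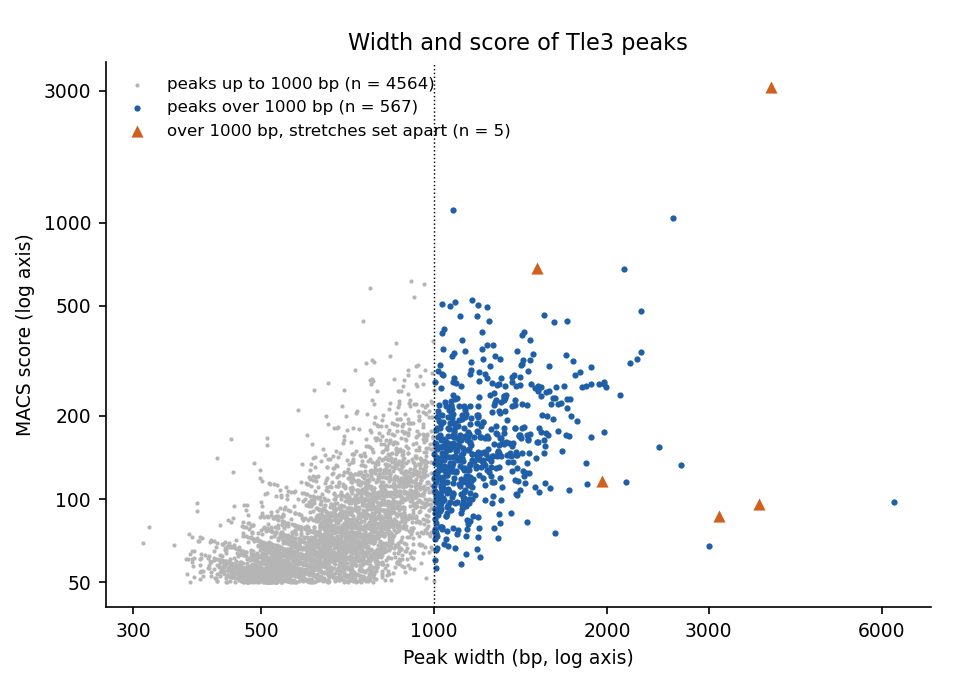
Each point is 1 peak, with its width in bp on the horizontal log axis and its MACS score on the vertical log axis. The dotted line marks 1000 bp; triangles are the 5 wide peaks in the stretches of likely multi-copy sequence on chromosomes 17 and X, and 4 of the 5 peaks wider than 3000 bp sit below a score of 100.

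Within the wide peaks the median score rose from band to band of width up to 3000 bp and was lower for the 5 peaks above. The median score was 135 for widths of over 1000 to 1200 bp, 167 for over 1200 to 1500 bp, 222 for over 1500 to 2000 bp and 316 for the 10 peaks of over 2000 to 3000 bp. The 5 peaks wider than 3000 bp had a median score of 96.2. Of these 5, all but a pair on chromosome 1 (scores 97.85 and 67.6) lay in the stretches set apart on chromosomes 17 and X. All 10 peaks of over 2000 to 3000 bp scored at least 100, and 1 of the 5 wider ones did. That 1 lay on chromosome 17 and had the highest score of the list, 3100. Across the 572 wide peaks Spearman's rho between width and score was 0.37, and it was 0.39 over the 567 of up to 3000 bp. Among the 4564 other peaks rho was 0.66. All points share the 2 libraries and the caller, and a range cut on width can by itself change rho, so these values describe the list only.

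**Figure D2:**
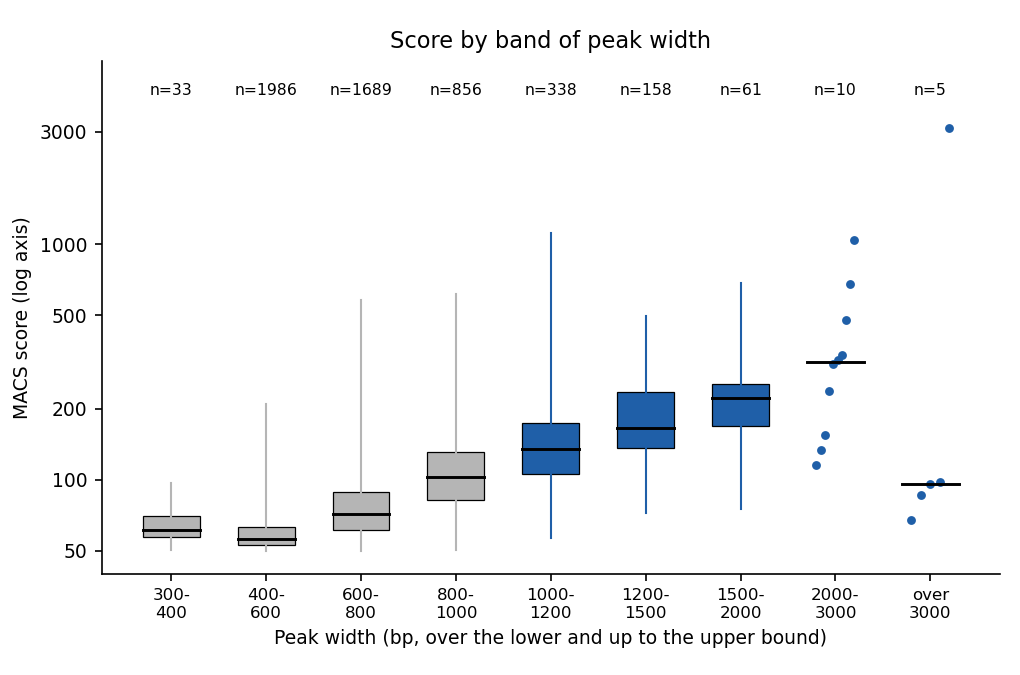
MACS score (log axis) by band of peak width in bp, with the number of peaks above each band. Boxes span the quartiles with the median as a black line, vertical lines reach the lowest and highest score, and bands of 10 or fewer peaks show each peak; the medians of the wide bands, in blue, go from 135 to 316 and then to 96.2 above 3000 bp.

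The widest peaks fell into 3 stretches, each with 2 or 3 wide peaks. The first is the stretch on chromosome 17 that was set apart from the start as the 45S ribosomal RNA locus of mm9. The 45S precursor is cut into the ribosomal RNAs; its genes lie in long tandem arrays, of which a genome assembly shows few copies, so reads of many copies can fall on 1 place. The peak at chr17:39979935-39983786 was 3852 bp wide and scored 3100, above all others in the list. The deposited value is exactly 3100, and whether this is an upper limit of the score was not examined. The peak at chr17:39984350-39985860 was 1511 bp wide and scored 687. The gap between them was 563 bp, so that called enrichment took up 90.5% of 5926 bp. Outside this pair the nearest peaks lay 2.80 Mb away on one side and 4.204 Mb on the other.

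The second stretch lies at the distal end of chromosome X and was also set apart from the start. The end of the mouse X carries the pseudoautosomal region, which is shared with the Y chromosome and rich in repeats. The peak at chrX:166429578-166433244 was 3667 bp wide and scored 96.2. Its neighbour at chrX:166434457-166436411 was 1955 bp wide and scored 117, and the peak at chrX:166443198-166446328 was 3131 bp wide and scored 86.6. The gaps between them were 1212 and 6786 bp, and the next peak lay 1.32 Mb away. In this order the 3 scores were higher than those of 73.4%, 82.4% and 67.4% of the list, whereas the chromosome 17 pair stood above 99.9% of it. These 3 were the only group of 3 wide peaks that were each within 10 kb of the next.

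The remaining peaks wider than 3000 bp form a pair on chromosome 1, outside the stretches set apart. The peak at chr1:90140986-90147273 was 6288 bp wide, the widest of the list, and scored 97.85. The peak at chr1:90172254-90175260 scored 67.6 at a width of 3007 bp, which is less than the median score of the list. The pair was 24980 bp apart, with no peak between them, and the nearest other peaks lay 0.390 and 0.309 Mb away. For comparison, the X stretch had scores of 86.6 to 117, and the 10 peaks of over 2000 to 3000 bp had scores of 116 to 1042. The pair was picked for its width, so no likeness to either set is read from width or score. Copy number of the sequence was not examined for any of the 3 stretches, as no genome of mm9 was used here, and its part in these widths was not tested.

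**Figure D3:**
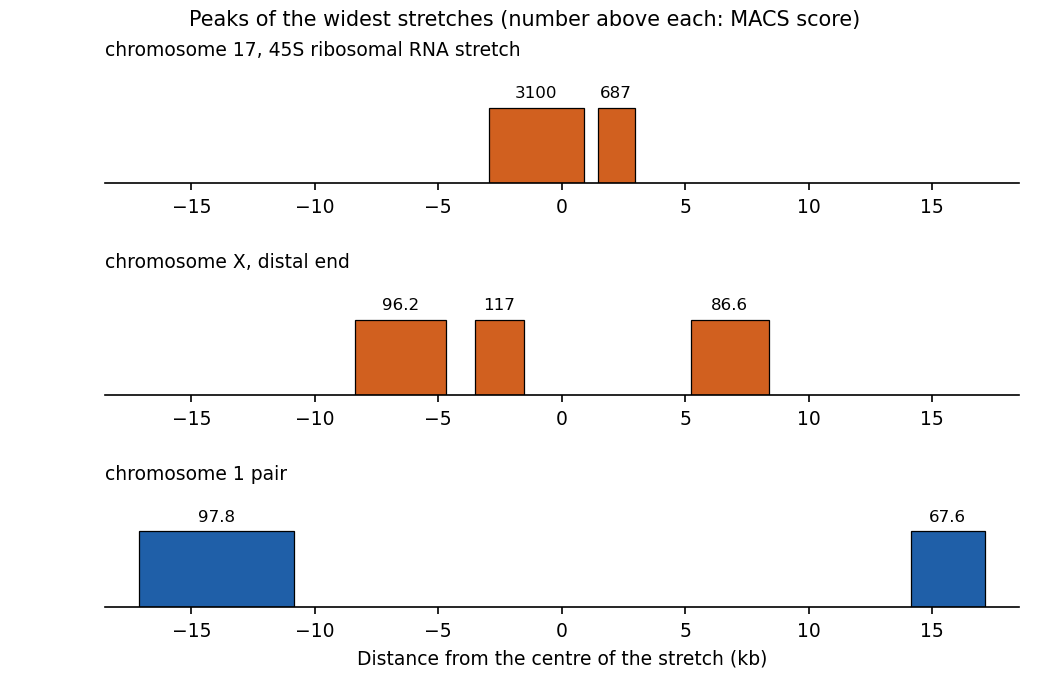
Peaks of the 3 stretches that hold all 5 peaks wider than 3000 bp, drawn to scale as distance in kb from the centre of each stretch; box heights carry no value and the number above each box is its MACS score. Orange marks the stretches on chromosomes 17 and X that were set apart, and blue the chromosome 1 pair; the chromosome 17 pair scored 687 and 3100, and the other 5 peaks scored from 67.6 to 117.

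Outside the stretches on chromosomes 17 and X there were 567 wide peaks. The 15 of them with the highest scores lay on 11 chromosomes and had a median width of 1193 bp, close to the median of all wide peaks. The peak at chr15:7166536-7167613 scored 1113 at a width of 1078 bp. The peak at chr7:19661251-19663850 scored 1042 at 2600 bp, and the peak at chr3:30992522-30994659 scored 680 at 2138 bp. The next score among the 567 was 526. Peaks of up to 1000 bp scored as high as 617, so the gap between 680 and 526 holds among wide peaks only. The first of the 3 was narrower than the median wide peak.

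The next 12 scored between 441 and 526. Chromosome 17 held 2 of them, at chr17:31972210-31973370 (score 526, 1161 bp) and at chr17:4994048-4996338 (score 477, 2291 bp). Chromosome 15 also held 2, at chr15:103088470-103089501 (score 506, 1032 bp) and at chr15:88961395-88962579 (score 460, 1185 bp). Single ones lay at chr18:55059451-55060535 (518), chr1:166065261-166066453 (503), chr6:94710462-94711525 (498) and chr7:86610361-86611595 (494). The last 4 lay at chr5:122285736-122287289 (462), chr9:44688925-44690034 (460), chr16:30063122-30064820 (441) and chr11:5737013-5738255 (441). Of the 15, those at chr18:55059451-55060535 and chr5:122285736-122287289 had another peak within 10 kb, at 1371 and 1420 bp. Among all peaks 22.2% had one and among wide peaks 26.2%, and nothing is read from so small a count.

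The 10 widest outside the stretches set apart shared 2 members with the 15 highest scoring, the peaks of 2600 bp on chromosome 7 and of 2291 bp on chromosome 17. The chromosome 1 pair led them, and the median score of the 10 was 233. Among the rest, the peaks at chr6:83405787-83408071 (2285 bp), chr18:39648603-39650854 (2252 bp) and chr7:71082188-71084379 (2192 bp) scored 340, 322 and 311. Scores were lower at chr8:123059395-123061850 (2456 bp, score 155), chr17:13743462-13746151 (2690 bp, score 133) and chr13:74665985-74668142 (2158 bp, score 116). The chromosome 13 peak was also among the more remote, at 1.18 Mb from any other peak. Peaks of over 2 kb outside the stretches thus spanned scores from 67.6 to 1042.

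A small set of wide peaks had low scores. Only 12 of the 572 (2.10%) scored below the median of all peaks, and they were picked out after their values were seen. The lowest score, 56.4, belonged to chr5:142915850-142916856 (1007 bp). Chromosome 19 held 3 of the 12, at chr19:24551362-24552472, chr19:43827017-43828150 and chr19:32463338-32464376, with scores of 58.25, 63.2 and 68.8. Of the 12, 11 were 1005 to 1200 bp wide, and the chromosome 1 peak of 3007 bp was the other. They lay on 9 chromosomes, and no pair of them was closer than 7.91 Mb. A peak lay within 10 kb of 1 of the 12, at chr3:142544601-142545611, where 22.2% of all peaks and 26.2% of wide peaks had one. The set is small and nothing is read from this count.

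Wide peaks were spread over all 20 chromosomes in about the same proportion as peaks in general. They made up between 8.04% of the peaks of chromosome 3 (18 of 224, 4.83 to 12.4%) and 15.6% of those of chromosome 19 (29 of 186, 10.7 to 21.6%) among the autosomes. On chromosome X the share was 17.5% (7 of 40, 7.34 to 32.8%). Without the distal stretch it was 10.8% (4 of 37, 3.03 to 25.4%). For every one of the 20 chromosomes the interval held the share over the whole list, 11.1%. Chromosome 11 held the most wide peaks, 48, followed by chromosome 1 with 44 and chromosome 7 with 41. Relative to the distance spanned by its peaks, chromosome 19 was the densest with 0.4998 wide peaks per Mb, ahead of chromosome 11 (0.407) and chromosome 17 (0.397), and chromosome 3 was the sparsest autosome (0.119). Peaks of any width numbered 186 over 58.0 Mb, 439 over 118 Mb, 268 over 85.7 Mb and 224 over 152 Mb on chromosomes 19, 11, 17 and 3. Their density thus differed too. The chromosome 17 values include the ribosomal RNA stretch. Median scores of the wide peaks ranged from 126 on chromosome X to 182 on chromosome 16. The X value includes the 3 peaks of the distal stretch, which scored 86.6 to 117, and the lowest autosomal median was 132 on chromosome 8. The lowest score of a wide peak on chromosome 16 was 99.4, the highest such minimum of any chromosome.

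**Figure D4:**
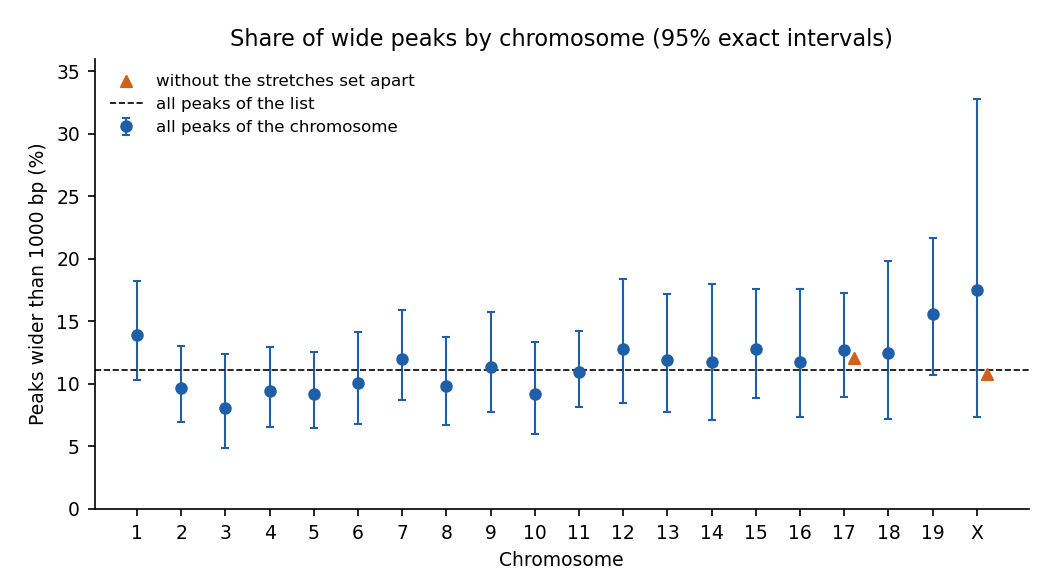
Share of each chromosome's peaks that were wider than 1000 bp, in percent, with 95% exact intervals for counting error; the dashed line is the share over all peaks. Triangles give chromosomes 17 and X without the stretches set apart, and the share on X goes from 17.5% to 10.8%.

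Wide peaks had a close neighbour somewhat more often than other peaks, a difference that was not tested. Within 10 kb the excess lay at gaps of up to 1 kb. Another peak lay within 10 kb, edge to edge, of 150 wide peaks, or 26.2% (22.7 to 30.0%), against 22.2% of all peaks and 21.7% (20.5 to 22.9%) of the other peaks, so these intervals overlap slightly. Within 1 kb it was 67, or 11.7% (9.19 to 14.6%), against 7.24% of all peaks and 6.68% (5.98 to 7.45%) of the others. Within 50 kb it was 315, or 55.1% (50.9 to 59.2%), against 49.5% of all peaks and 48.8% of the others. A wide peak reaches further towards its neighbours; measured between midpoints, the shares within 10 kb were 25.5% and 20.8%. Peaks in groups are not independent, so the intervals are too narrow.

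The share with a close neighbour was highest for the wider members, a difference that was not tested. Of the 76 peaks over 1500 bp, 30 had another peak within 10 kb, or 39.5% (28.4 to 51.4%). Of the 71 outside the stretches set apart it was 25, or 35.2% (24.2 to 47.5%). For the 496 of over 1000 to 1500 bp it was 120, or 24.2% (20.5 to 28.2%), and for the peaks of over 800 to 1000 bp just below the threshold it was 21.7%. The 61 peaks of over 1500 to 2000 bp had a share of 41.0% (28.6 to 54.3%), while 2 of the 10 peaks of over 2000 to 3000 bp had a neighbour at that distance.

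**Figure D5:**
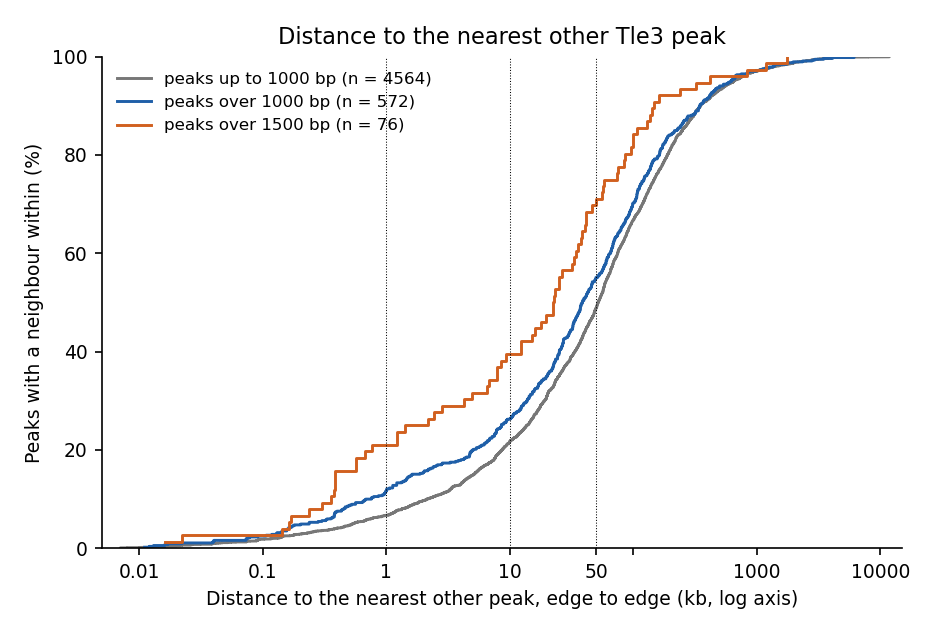
Cumulative percentage of peaks whose nearest other peak lies within the distance on the horizontal log axis, in kb from edge to edge, for other peaks (grey), wide peaks (blue) and peaks over 1500 bp (orange); dotted lines mark 1, 10 and 50 kb. At 10 kb the curves stand at 21.7%, 26.2% and 39.5%, with the stretches set apart included.

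The close neighbours of wide peaks were much like peaks in general. Where the nearest peak lay within 10 kb of a wide peak, it had a median width of 696.5 bp and a median score of 74.99, against 657 bp and 68.8 over all peaks. It was wide itself in 26 of 150 cases (17.3%), and in 21 of 145 (14.5%) outside the stretches set apart, where wide peaks were 11.1% of the list. The nearest peaks within 10 kb of other peaks had a median width of 675 bp and a median score of 72.1, and 14.2% were wide. The nearest neighbour lay at the lower coordinate for 83 of the 150 wide peaks and at the higher one for 67, and 31 had a peak within 10 kb on both sides. Among the 631 adjacent pairs of the list within 10 kb, 151 joined a wide and another peak and 15 joined a pair of wide peaks.

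Another wide peak lay within 10 kb of 33 wide peaks, or 5.77% (4.004 to 8.007%), against 3.76% of all peaks. Outside the stretches set apart it was 28 of 567, or 4.94% (3.31 to 7.06%), and for the other peaks 160 of 4564, or 3.51% (2.99 to 4.08%), so these intervals overlap. Among wide peaks the median distance to the next wide peak was 0.546 Mb. The 33 with a wide neighbour formed the group of 3 on chromosome X and 15 pairs, with the chromosome 17 pair of the ribosomal RNA stretch among them. The highest scoring of the other pairs lay on chromosome 14, at chr14:70456362-70466571, where peaks of 1234 and 1433 bp scored 362 and 403 across a gap of 7543 bp. On chromosome 7, at chr7:29165603-29168743, peaks of 1007 and 1972 bp scored 177 and 265 and were only 162 bp apart. The closest pair, on chromosome 15 at chr15:36721945-36724260, had a gap of 40 bp and scores of 147 and 217. In 7 of the adjacent pairs within 1 kb both peaks were wide. These pairs were chosen after their values were seen.

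Merging peaks within 1 kb of each other before the threshold was applied raised the number of regions wider than 1000 bp from 572 to 686. Of these, 565 held a listed wide peak and 121 were built from narrower calls alone. The 121 had a median width of 1578 bp, which includes the uncalled gaps between their peaks, and a median highest score of 79.3. Both values follow in part from how these regions were built, so they are not compared with the listed wide peaks.

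Chains of 3 or more peaks, each within 10 kb of the next, held 53 wide peaks among 322 peaks (16.5%), where wide peaks were 11.1% of the list. The 3996 peaks without a neighbour at that distance held 422 (10.6%). The 3 wide peaks of the distal X stretch form 1 of these chains and are counted here. Chains of 2 held 97 wide peaks among 818 (11.9%), near the share over the list. Chains of 3 held 44 wide peaks among 240 (18.3%), and chains of 4 held 9 among 72 (12.5%). The 2 chains of 5 peaks held none. In the 8 tiles of 1 Mb with the most peaks (over 16 each, by start), wide peaks were 21 of 162 (12.96%), close to the share over the list. Counted by wide peaks instead, 1 tile held 5 and 8 tiles held 4. The fullest ran from 91000001 to 92000000 on chromosome 16, where 5 of 11 peaks were wide. Their widths were 1160, 1106, 1193, 1607 and 1638 bp and their scores 116, 193, 217, 194 and 220, at chr16:91010824-91011983, chr16:91354877-91355982, chr16:91366639-91367831, chr16:91522223-91523829 and chr16:91546115-91547752. The last 4 lay within 0.193 Mb. This tile was chosen after the counts were seen.

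At the other end, the wide peak farthest from any peak was at chrX:39502962-39503971, 1010 bp wide with a score of 126 and 6.13 Mb from the next. The wide peak farthest from another wide one was at chrX:71488675-71489830, at 32.0 Mb, although the nearest other peak was 68278 bp away. It scored 159, the highest among the 7 wide peaks on X. X held the fewest peaks of any chromosome, and the 4 outside its distal stretch scored from 126 to 159 at widths of 1010 to 1215 bp.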

How the data were processed

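The deposited file was 1 peak list from 1 Tle3 and 1 control library. Per the submitters' processing notes, Bowtie2, MACS 1.4 and the build mm9 were used; for parameters, filters and duplicate handling the sources used here give nothing. The MACS score per peak is as deposited by the authors, starts at 50 (a p-value of 1e-05) and says nothing of read number or fold. Starts were converted to positions counted from 1. Width was end minus start, and distances were edge to edge unless stated. Counts, medians and exact intervals were computed with Python 3.11.15, pandas 2.3.3 and SciPy 1.17.1, and the interval functions were tested on simulated data. The members and all lists were chosen with earlier results of these data known. Named regions are those set apart, the 15 highest scoring and 10 widest others, 3 on each side of the threshold, the most remote one and the largest group; others are said to be chosen after the values were seen. Genes, promoters, motifs, base composition and copy number were not analysed, because the gene and promoter tables at hand are of GRCm38.p6, another build.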

Additional observations from a re-analysis of the deposited data

How the results depend on the processing

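Of 33 alternatives over 8 results, 6 of them added after the data were seen, 19 moved the value by less than its counting interval, or by less than 1.5 times for a count, and 14 moved it further. The share of covered length has no counting interval, so that limit does not apply to it. At a threshold of 800 bp there were 1428 wide peaks with a median score of 119, 66.0% scored at least 100, 9.94% had another wide peak within 10 kb, and they took up 39.96% of the covered length. At 1500 bp there were 76, with a median score of 222, 93.4% scoring at least 100, 39.5% with another peak within 10 kb, and 3.94% of the covered length. The share with another peak was 11.7% at 1 kb and 55.1% at 50 kb, which are other quantities by definition and do not check the share at 10 kb. At 10 kb the share was 9.65% among peaks scoring at least 100 (8.17% for other peaks), and 18.4% after merging within 1 kb (16.1%), against 26.2% and 21.7% as listed. Lists with fewer peaks hold fewer neighbours by construction. Leaving out the stretches of likely multi-copy sequence removed 5 of the 572 wide peaks, and leaving out chromosome X removed 7. So few peaks could hardly move a median or share over the 572, and none of the results tried moved beyond the limits above. The share on chromosome X went from 17.5% to 10.8%, inside its wide interval of 7.34 to 32.8%. Copy number was not examined for the other wide peaks, so its part in these results was not tested. Alternatives for gene starts, base composition and motifs were not run, since no annotation or genome of mm9 was used here. With no read totals, the depth that limits the list is unknown. No paired analysis was possible because each antibody had a single library.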
